A study of Mus musculus with 6 samples.

Results

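Transcripts of 10 leukocyte integrin genes were followed in whole bone marrow of mice given the CXCL12 antagonist NOX-A12. The genes were the alpha subunits Itga4, Itga5, Itga6, Itga9, Itgal, Itgam and Itgav and the beta subunits Itgb1, Itgb2 and Itgb7, and their probe sets were those that the platform annotation assigns to exactly 1 of these symbols. This gave 30 probe sets for 10 genes, of 45037 probe sets and 18193 named genes in the table. Marrow came from 3 SCID/Bg mice treated with NOX-A12 and 3 untreated SCID/Bg mice, each on its own Affymetrix Mouse Genome 430 2.0 array. NOX-A12 is a mirror-image RNA aptamer that binds the chemokine CXCL12, and SCID/Bg mice carry the scid and beige mutations, so both groups lack mature T and B lymphocytes and have impaired natural killer cells. The sources used here give no dose, schedule or age.

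Integrins are membrane receptors made of 1 alpha and 1 beta chain, and a chain reaches the cell surface only with a partner. In marrow, alpha4 paired with beta1 anchors stem cells and B-cell precursors to VCAM1 on stromal cells, while the beta2 integrins bind ICAM molecules and carry neutrophils and monocytes across endothelium. CXCL12 acting on CXCR4 switches integrins that are already on the surface into a high-affinity shape, a protein change that transcript levels do not read.

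The windows from 250 bases before to 50 bases after the start of transcription were available from RefSeq for 7 of the 10 genes (build GRCm38.p6). Those of Itgam, the member with the largest log2 change, and Itga4, the alpha chain of the VCAM1 receptor, are printed 5′ to 3′ on the gene's strand. Capitals mark GAGGAA, the core bound by the myeloid factor PU.1, and GGGCGG, the box bound by Sp1, each on either strand. Those motifs do not overlap each other in these windows.
Itgam chr7:128062390-128062689, plus strand: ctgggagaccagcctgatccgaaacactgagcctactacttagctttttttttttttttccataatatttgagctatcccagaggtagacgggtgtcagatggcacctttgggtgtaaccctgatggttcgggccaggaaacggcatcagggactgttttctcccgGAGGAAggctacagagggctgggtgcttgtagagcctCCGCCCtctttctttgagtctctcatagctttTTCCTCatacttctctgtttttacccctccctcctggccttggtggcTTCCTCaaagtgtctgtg
Itga4 chr2:79255176-79255475, plus strand: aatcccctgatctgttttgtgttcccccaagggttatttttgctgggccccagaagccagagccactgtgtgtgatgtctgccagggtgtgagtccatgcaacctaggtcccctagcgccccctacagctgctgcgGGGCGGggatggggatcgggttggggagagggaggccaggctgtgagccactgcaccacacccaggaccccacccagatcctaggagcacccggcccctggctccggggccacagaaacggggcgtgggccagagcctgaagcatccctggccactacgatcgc
The Itgam window held 3 copies of GAGGAA and 1 of GGGCGG, and the Itga4 window held 0 and 1. GAGGAA was found in 5 of the 7 member windows and in 28.3% of all 32851 windows of that length, and GGGCGG in 5 of the 7 and in 35.7%. These matches describe the letters in the windows only.

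Median intensity was 44.8 to 45.6 over the arrays. Precision is limited by there being 3 arrays a group. The array of untreated mouse 3 stood apart, with 851 probe sets more than 2-fold away from the other arrays' median, 780 of them lower, against 44 to 67 on each of the others. Among its low probe sets that lay above the median level and named 1 gene, 600 had another such probe set for the same gene. In 451 of those 600 every other probe set of the gene was within 2-fold. The change of each member gene is therefore given with and without this mouse. Marrow granulocytes were plain in the data, with summed neutrophil marker intensities of 95648 to 99821 in NOX-A12 mice and 90711 to 99702 in untreated mice. Of 8 T-cell markers measured, 3 stayed under an intensity of 20 on every array, Cd4 among them. Cd3d, singled out after its values were seen, had 1895, 1893 and 1649.5 in NOX-A12 mice against 1105, 1513 and 1339.5 in untreated mice. The groups did not overlap there, at a log2 change of 0.46 ± 0.14 (limma adjusted p = 0.942). Over all probe sets the groups did not overlap at 9.85%. Of the 8 T-cell markers, 4 had a positive and 4 a negative log2 change, with a median of -0.00024. Cxcl12 itself, at its probe set of highest mean, gave a log2 change of -0.39 ± 0.11 (SE) and did not pass (limma adjusted p = 0.926). Its other bright probe set, 1417574_at, gave -0.49 ± 0.09 (limma adjusted p = 0.926). At both, every treated mouse was below every untreated mouse. The dim 1439084_at went the other way, at 0.28 ± 0.12 (limma adjusted p = 0.967), also without overlap.

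No integrin transcript passed the test for a difference between NOX-A12 and untreated marrow. In limma fitted over all probe sets, 0 of the 30 integrin probe sets passed an adjusted p of 0.05 in either direction, as did 0% of all probe sets, and the lowest adjusted p of any member was 0.967. At an unadjusted p under 0.05, 1 member probe set was higher and 0 were lower, against 1.88% and 3.10% of all probe sets (4.97% in either direction). The groups did not overlap at 1 of the 30, where 9.85% of all probe sets did not overlap (5.85% lower, the rest higher). That probe set, in both counts, belonged to Itga5. With 1 probe set per gene, that of highest mean, 6 of the 10 genes had a positive and 4 a negative log2 change, with a median of 0.04 beside 0.00 over all probe sets. All changes are given as NOX-A12 minus untreated after adding 16 to each intensity and taking log2, so those of dim probe sets are understated, and each is followed by its SE (± sign, n = 3 mice a group).

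The size of change that these arrays leave possible differed between members. At the probe set of highest mean, the 95% interval of the log2 change lay within 1 of 0 for 9 of the 10 genes. That is within a 2-fold change on this scale, and Itgam was the exception. Over the 30 probe sets 27 intervals did so. Besides Itgam, the wider ones were those of Itga6 1422444_at (-1.06 to 0.46) and Itgb1 1427771_x_at (-0.46 to 1.05), both above the median level. At 9 genes some probe set was above the median level of the array, and Itga5 had none there. Whole marrow mixes many cell types, so fewer cells of a type and less transcript per cell cannot be told apart.

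**Figure D1:**
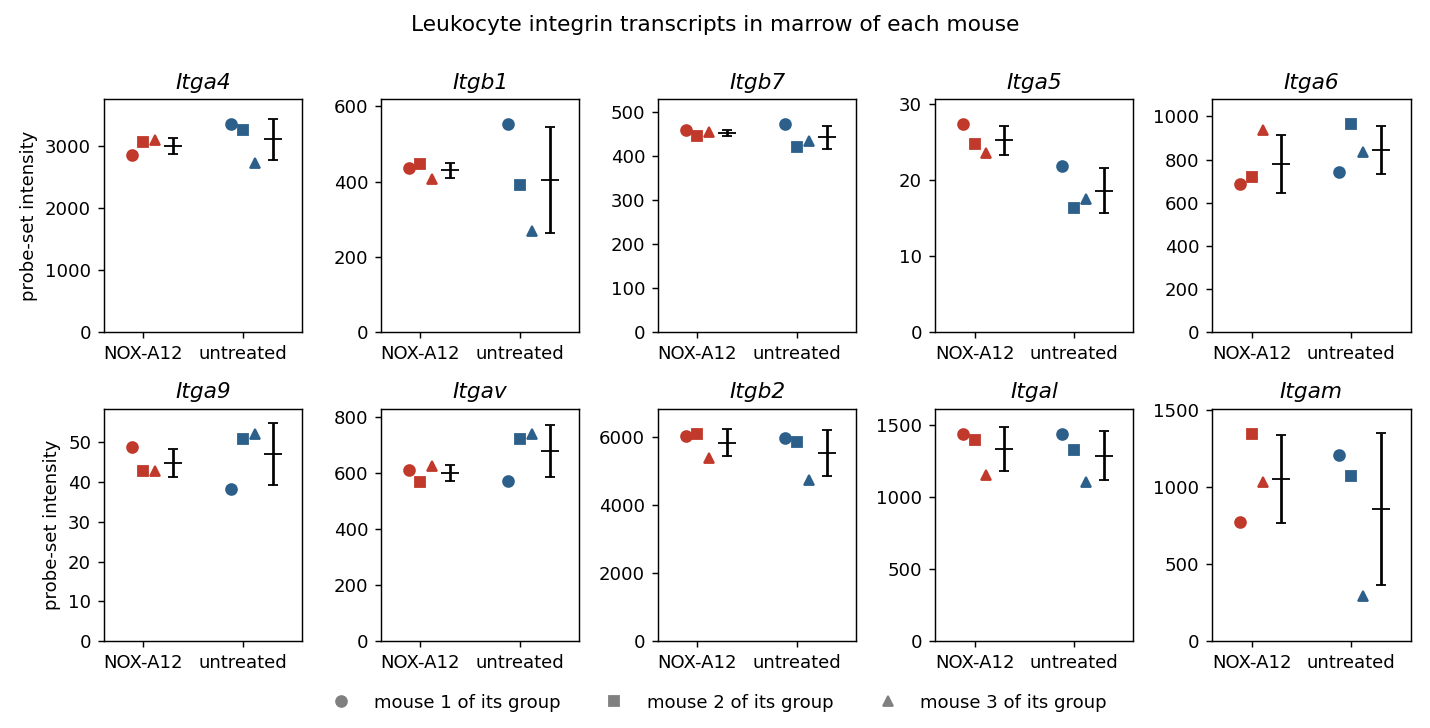
Probe-set intensity (linear, each axis from 0) of the 10 integrin genes at the probe set of highest mean, with NOX-A12 mice in red on the left and untreated mice in blue on the right; symbols give the mouse number within its group and bars the mean ± SD (n = 3). Red and blue points interleave in 9 of the 10 panels, Itga5 being the other one, and Itgam of untreated mouse 3 lies at 291.

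The alpha4 integrins bind VCAM1 when paired with beta1 and MAdCAM-1, the addressin of gut vessels, when paired with beta7. Itga4 had intensities of 2861, 3064 and 3097 in NOX-A12 mice, against 3356, 3261 and 2738 in untreated mice. The highest values were those of untreated mice 1 and 2 and the lowest that of untreated mouse 3, so the groups overlapped. The log2 change was -0.05 ± 0.11, with a 95% interval of -0.30 to 0.21, and without untreated mouse 3 it was -0.14 ± 0.09 (-0.36 to 0.08). Of the other 4 probe sets of Itga4, 1421194_at and 1456498_at, both above the median level, gave 0.07 ± 0.10 and 0.14 ± 0.30, and the dim ones gave -0.10 ± 0.24 and 0.04 ± 0.11. Without untreated mouse 3 the 2 bright ones gave -0.00041 ± 0.10 and -0.17 ± 0.22, so the positive sides of both rest on that mouse.

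Itgb1, the shared beta chain of the receptors for VCAM1, fibronectin and laminin, had intensities of 436, 447 and 408 in NOX-A12 mice, against 552, 391.7 and 269 in untreated mice. The NOX-A12 mice lay within the range of the untreated mice, whose SD was 142 against 20.2 in NOX-A12 mice. The log2 change was 0.14 ± 0.23 (-0.40 to 0.68) and turned to -0.11 ± 0.16 (-0.49 to 0.27) without untreated mouse 3. At its other bright probe sets, 1427771_x_at and 1426918_at, that mouse was again lowest, at 87.3 and 91.8, where the other mice ranged from 194 to 243 and from 142 to 185. Their changes of 0.30 ± 0.32 and 0.11 ± 0.22 turned to -0.11 ± 0.11 and -0.15 ± 0.11 without it. The remaining 3 probe sets of Itgb1 were near background, at 4.49 to 15.2 in every mouse.

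Itgb7, the other beta chain that alpha4 can join, had the smallest SE of the 10 genes. Its intensities were 459.9, 447 and 454 in NOX-A12 mice, against 472, 421 and 436 in untreated mice. The groups overlapped, and the log2 change was 0.03 ± 0.09 (-0.18 to 0.24), or 0.02 ± 0.09 without untreated mouse 3.

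Itga5, which with beta1 forms the main fibronectin receptor, was dim throughout. Its probe set of highest mean, 1423267_s_at, had 27.3, 24.7 and 23.5 in NOX-A12 mice, against 21.9, 16.3 and 17.5 in untreated mice. Every NOX-A12 mouse was above every untreated mouse, the nearest being NOX-A12 mouse 3 and untreated mouse 1. The log2 change was 0.25 ± 0.10 (0.02 to 0.49), with an unadjusted p of 0.0384 and a limma adjusted p of 0.967, and it was 0.23 ± 0.11 (-0.03 to 0.50) without untreated mouse 3. The other probe sets of Itga5 did not share a sign, at 0.07 ± 0.14, 0.15 ± 0.15 and -0.18 ± 0.10, and the groups overlapped at each of them. The mean of its 4 probe sets gave 0.075.

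Itga6, the alpha chain of laminin receptors on stem cells and megakaryocytes, had 689, 717 and 936 in NOX-A12 mice, against 741, 963 and 833 in untreated mice. NOX-A12 mouse 3 stood with the higher untreated mice, and the change was -0.12 ± 0.15 (-0.48 to 0.24), or -0.13 ± 0.18 without untreated mouse 3. The other probe set of Itga6 varied more, with 249.6, 208 and 444 in NOX-A12 mice against 243, 493 and 368 in untreated mice, a change of -0.30 ± 0.32. The highest values at both probe sets came from untreated mice 2 and 3 and NOX-A12 mouse 3. The platelet integrin subunit gene Itga2b, expressed by megakaryocytes, had 1245, 1234 and 1743 in NOX-A12 mice against 1194, 2015 and 1781 in untreated mice. Like Itga6 it was highest in NOX-A12 mouse 3 among the treated and in untreated mouse 2 among the untreated. Over 8 megakaryocyte markers the summed intensity was 13666 to 15928 in NOX-A12 mice and 12884 to 16517 in untreated mice, and the part of these cells in the Itga6 values was not tested.

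Itga9 pairs with beta1 and binds tenascin C, VCAM1 and osteopontin. Its brightest probe set, close to the median level of the array, had 48.8, 42.7 and 42.8 in NOX-A12 mice, against 38.1, 50.7 and 52.1 in untreated mice. The groups overlapped, with a change of -0.04 ± 0.12 (-0.32 to 0.23) and 0.02 ± 0.12 without untreated mouse 3. The dimmer probe set 1450029_s_at gave the lowest unadjusted p of the family on the lower side, with 18.1, 19.3 and 25.0 in NOX-A12 mice against 23.1, 30.7 and 33.0 in untreated mice. These still overlapped at NOX-A12 mouse 3 and untreated mouse 1, and the change was -0.29 ± 0.12 (-0.58 to 0.0069, limma adjusted p = 0.967).

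Itgav, the alpha chain of vitronectin and latent TGF-beta receptors, had 613, 570.2 and 625 in NOX-A12 mice, against 572, 724 and 742 in untreated mice. Untreated mice 2 and 3 were above all treated mice and untreated mouse 1 lay among them. The change was -0.16 ± 0.12 (-0.45 to 0.13), or -0.09 ± 0.13 without untreated mouse 3. The other probe set above the median level gave 0.13 ± 0.15, or 0.020 without untreated mouse 3, and the 3 dim ones gave 0.20, -0.0028 and -0.029. Stromal marker genes had negative changes in the same comparison at 11 of 11, 9 of them at an unadjusted p under 0.05. At that unadjusted p 3.10% of all probe sets were lower, and 0 stromal markers passed the adjusted threshold. Their median was -0.47, or -0.38 without untreated mouse 3. Summed intensities were 6085 to 7673 in NOX-A12 mice and 8119 to 9626 in untreated mice, the highest in untreated mouse 3. Endothelial markers were 10 of 10 negative, 6 of them at an unadjusted p under 0.05, with 0 past the adjusted threshold. Their median was -0.47, or -0.36 without untreated mouse 3. Their sums were 872 to 900 in NOX-A12 mice and 1077 to 1372 in untreated mice, again highest in untreated mouse 3. The part of stromal and endothelial cells in the Itgav values was not tested.

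**Figure D2:**
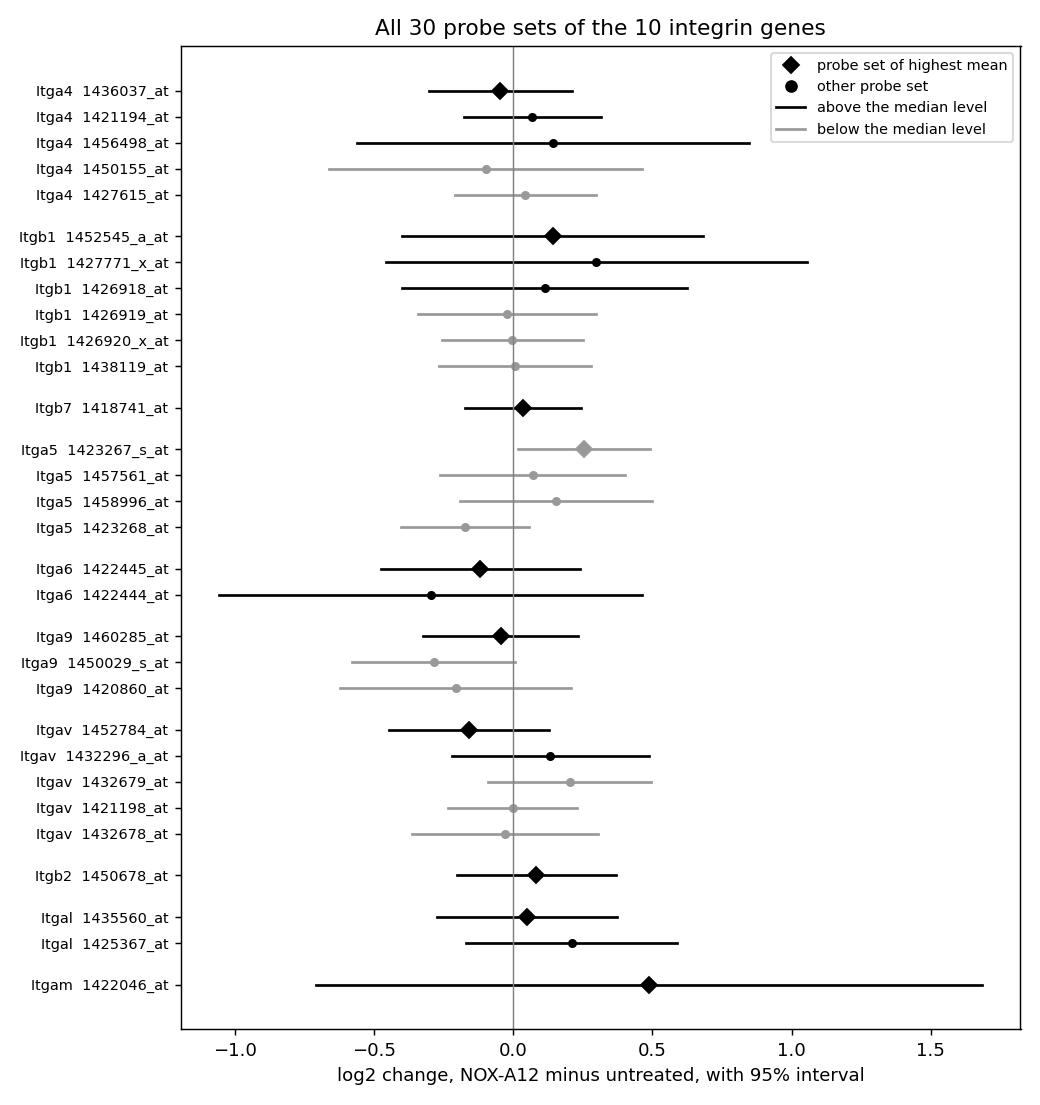
Log2 change (NOX-A12 minus untreated) with its 95% interval for each of the 30 integrin probe sets, grouped by gene; diamonds mark the probe set of highest mean, and grey marks probe sets below the median level of the array. All intervals include 0 except that of Itga5 1423267_s_at, and 4 of the 7 genes with more than 1 probe set have changes on both sides of 0.

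The beta2 integrins of leukocytes share the chain encoded by Itgb2, whose loss causes leukocyte adhesion deficiency. Itgb2 had intensities of 6017, 6098 and 5379 in NOX-A12 mice, against 5980.2, 5861 and 4744 in untreated mice. Only untreated mouse 3 lay below the NOX-A12 range. The change was 0.08 ± 0.12 (-0.20 to 0.37) and -0.02 ± 0.10 (-0.27 to 0.22) without that mouse. Itgal encodes the alpha chain of LFA-1, a receptor for ICAM1 on most leukocytes, and had 1437, 1393 and 1154 in NOX-A12 mice against 1434, 1321 and 1099 in untreated mice. Mouse 3 was the lowest of each group, the groups overlapped, and the change was 0.05 ± 0.14 (-0.27 to 0.37), or -0.058 ± 0.13 without untreated mouse 3. The other probe set of Itgal, also above the median level, gave 0.21 ± 0.16, or 0.23 ± 0.19 without untreated mouse 3. Without that mouse the 2 probe sets thus differed in sign.

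Itgam, the alpha chain of Mac-1 (CD11b) on neutrophils and monocytes, had the largest log2 change of the 10 genes and the widest interval. Its single probe set had 773, 1346 and 1034 in NOX-A12 mice, against 1207, 1072 and 291 in untreated mice. Untreated mice 1 and 2 lay inside the range of the treated mice, and untreated mouse 3 alone lay below it. The change was 0.49 ± 0.51 (-0.71 to 1.69, limma adjusted p = 0.967), and it was -0.15 ± 0.23 (-0.70 to 0.41) without untreated mouse 3. On the array of that mouse the log2 value of Itgam differed by -1.82 from the median of the others, and 100 of the 45037 probe sets, Itgam included, lay as low or lower. With no other probe set of its own, Itgam cannot be set against a repeat measurement of the same transcript.

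Other myeloid transcripts on that array give context for Itgam. Over 12 neutrophil markers the sum was 90711 in untreated mouse 3, against 95648 to 99821 in NOX-A12 mice and 99702 at most in untreated mice. On the array of that mouse 11 of the 12 lay below the median of the others, with log2 deviations of -1.46 to 0.015 and a median of -0.25. Neutrophil markers were not alone in this, as 7 of 7 erythroid markers also lay below, with a median of -0.15. By contrast, 1 of 11 stromal and 1 of 10 endothelial markers lay below. Cxcr2, the neutrophil chemokine receptor gene, was 1356, 1692 and 1029 in NOX-A12 mice against 1594, 1269 and 483 in untreated mice. Ccr2, the chemokine receptor gene of classical monocytes, was 1478, 1849 and 1681 in NOX-A12 mice against 1914, 1581 and 784 in untreated mice. Both were lowest in untreated mouse 3, and both were picked from the marker lists after their values were seen. The monocyte and macrophage list did not share the low value of Ccr2. On that array 5 of its 13 markers lay below the median of the others, with log2 deviations of -1.08 to 0.74 and a median of 0.07. The parts of neutrophil number, of monocyte number and of that array's low probe sets in the Itgam value were not tested.

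**Figure D3:**
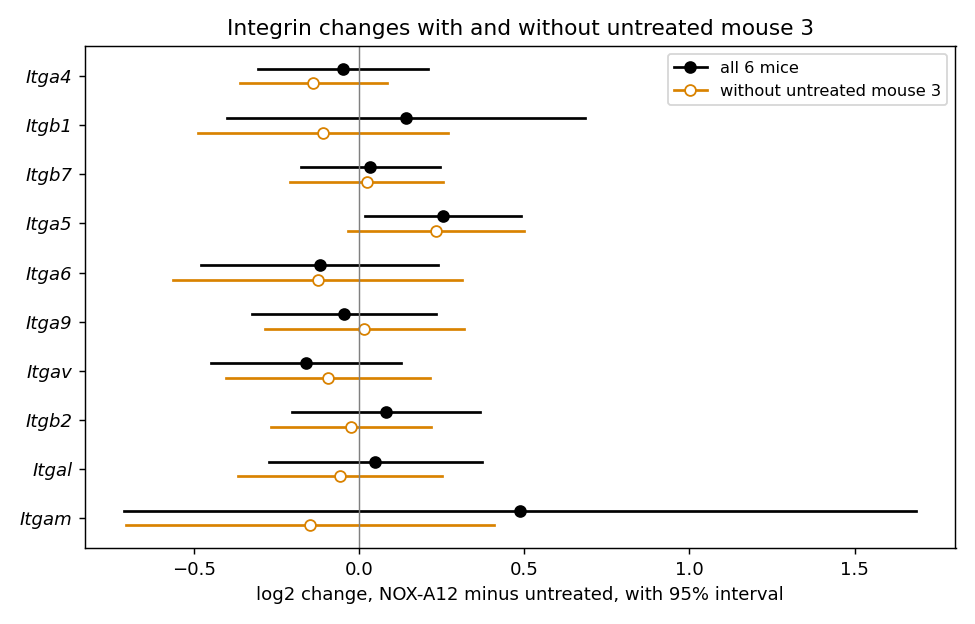
Log2 change (NOX-A12 minus untreated) and 95% interval of the 10 integrin genes at the probe set of highest mean, in black for all 6 mice and in orange without untreated mouse 3. Leaving that mouse out moves Itgam to -0.15, Itgb1 to -0.11, Itgal to -0.06 and Itgb2 to -0.02, all from the positive side, and Itga9 to 0.02 from the negative side.

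Untreated mouse 3 had the lowest value of 5 of the 10 genes and the highest value of 2, Itga9 and Itgav. Without it, 3 genes had a positive and 7 a negative change at the probe set of highest mean. The median was -0.08, and all 10 intervals at those probe sets lay within 1 of 0. Again 0 of the 30 probe sets passed (lowest limma adjusted p of a member 0.935), and 0 had an unadjusted p under 0.05 beside 5.43% of all probe sets. The groups then did not overlap at 2 of the 30, where 19.5% of all probe sets did not. They were the probe sets of highest mean of Itga4, lower in NOX-A12 mice, and of Itga5, higher in NOX-A12 mice.

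Subunits that compete for 1 partner chain were compared within each mouse, which asks whether their transcripts changed unequally. The alphaM minus alphaL difference, between the alpha chains of beta2, changed by 0.44 ± 0.59 (exact permutation p = 0.5, two-sided, adjusted p = 0.75 over 3 contrasts). It was -0.09 without untreated mouse 3. The beta7 minus beta1 difference, between partners of alpha4, changed by -0.11 ± 0.26 (exact permutation p = 0.8, adjusted p = 0.8) and by 0.13 without that mouse.

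The alpha5 minus alpha4 difference, between the fibronectin and the VCAM1 receptor chains of beta1, changed by 0.30 ± 0.12, and by 0.37 without that mouse. Centred on the mean of the 6 mice it was 0.29, 0.11 and 0.05 in NOX-A12 mice, against -0.13, -0.31 and -0.01 in untreated mice. Every NOX-A12 mouse was above every untreated mouse, with the nearest pair at 0.05 and -0.01. The exact permutation p of 0.1 is the smallest that 3 against 3 mice can give, and adjusted over the 3 contrasts it was 0.3. Its size depended on the probe sets and the offset, and Itga5 was dim at every probe set. With the mean of all probe sets of each gene the difference was 0.054 (exact permutation p = 0.9). With 64 added before log2 it was 0.16 (exact permutation p = 0.3). Without _x_at and _s_at probe sets, Itga5 was read at the dim 1457561_at, and the difference was 0.12 (exact permutation p = 0.1).

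The genes whose profiles over the 6 mice lay closest to 2 members were found among 11003 others above the median level, by the root mean square difference of centred log2 values. For Itga4, whose own root mean square spread was 0.101, these were Ddx19b (0.0162), Acp1 (0.0218) and Ccdc82 (0.0225). For Itgb2, with a spread of 0.128, they were Anxa2 (0.0141), Ppp4c (0.0208) and Rchy1 (0.0215). Each of them, like Itga4 and Itgb2, had its lowest value in untreated mouse 3. For Itgam, added after its values were seen and with a spread of 0.72, they were Dnajc21 (0.155), Srrm2 (0.156) and Tecr (0.198). Srrm2 had 773 in untreated mouse 3, against 2091 to 2652 in NOX-A12 mice and 2323 and 2704 in the other untreated mice.

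The remaining integrin subunits did not pass either. Of 14 measured genes of this list, 0 passed in limma in either direction, at the adjusted threshold or at an unadjusted p under 0.05, and the median change was 0.02. Itgb3, the beta chain of the platelet integrin, gave -0.06 ± 0.14, and Itga2b gave -0.22 ± 0.22. Itgax, the CD11c chain of dendritic cells, had 108, 103 and 88.4 in NOX-A12 mice against 117, 114 and 112 in untreated mice. Every treated mouse was lower, at -0.17 ± 0.10 (adjusted p = 0.967). Itga7 and Itga3, laminin receptor chains, gave 0.27 ± 0.12 at a dim probe set and 0.26 ± 0.15.

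Ligands of these integrins showed the same lack of calls, with 0 of 24 genes past the adjusted threshold or an unadjusted p under 0.05 in limma and a median of -0.02. Vcam1, the counter-receptor of alpha4-beta1, had 3164, 2849 and 2939 in NOX-A12 mice against 2915, 3061 and 3089 in untreated mice at its brightest probe set. The groups overlapped and the change was -0.02 ± 0.09 (-0.23 to 0.19). At its probe set 1415989_at untreated mouse 3 had 214 where the others had 659 to 816, and the change of 0.51 ± 0.45 was -0.08 without that mouse. At the dim 1451314_a_at every treated mouse was lower, with 35.4, 36.0 and 30.5 in NOX-A12 mice against 41.9, 63.6 and 54.4 in untreated mice, at -0.46 ± 0.13 (adjusted p = 0.936). Its probe sets thus disagreed, and the brightest gave the value closest to 0.

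Fn1, encoding fibronectin, gave 0.32 ± 0.17, or 0.16 without untreated mouse 3. Its probe set 1437218_at, also above the median level, gave 0.33 ± 0.21, or 0.43 ± 0.23 without that mouse. Tnc, encoding tenascin C, a ligand of alpha9-beta1, had 190.3, 92.2 and 179 in NOX-A12 mice against 166, 252 and 330.4 in untreated mice. The groups overlapped at untreated mouse 1, at -0.65 ± 0.31 (-1.38 to 0.07). Vtn, encoding vitronectin, gave 0.22 ± 0.12 at a dim probe set and -0.16 ± 0.13 at another dim one. Icam1 gave 0.0042 ± 0.10, and Madcam1 was near background at 3.55 to 12.6 in every mouse.

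Among 19 genes that act on integrin activation from inside the cell, 0 passed the adjusted threshold, 0 were higher and 3 lower at an unadjusted p under 0.05 (1.88% and 3.10% of all probe sets), and the median was 0.01. The groups did not overlap at 4 of the 19, 1 higher and 3 lower, beside 9.85% of all probe sets (5.85% lower, the rest higher). Fermt3, the kindlin of blood cells, gave -0.09 ± 0.11. Tln1, encoding the talin that opens the beta chain, gave 0.14 ± 0.15 (-0.013 without untreated mouse 3). Its other probe sets, both above the median level, gave 0.22 ± 0.15 and -0.13 ± 0.10. Rap1b, a GTPase that recruits talin, gave 0.0088 ± 0.09. Its other probe sets, both above the median level, gave 0.25 ± 0.27 (-0.09 without untreated mouse 3) and -0.14 ± 0.09. The 3 lower at an unadjusted p under 0.05 were Fermt2, Tln2 and Dok1. Fermt2, the kindlin of adherent tissue cells, gave -0.83 ± 0.14, and Tln2, a talin, -0.38 ± 0.10 on a dim probe set. Dok1, an adaptor that competes for the beta tail, gave -0.21 ± 0.09. Their limma adjusted p values were 0.926, 0.926 and 0.967. Fermt2 had 47.5, 45.6 and 57.4 in NOX-A12 mice against 81.4, 106 and 119 in untreated mice at this probe set, whereas its other probe sets gave 0.15 ± 0.11 and -0.11 ± 0.14.

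**Figure D4:**
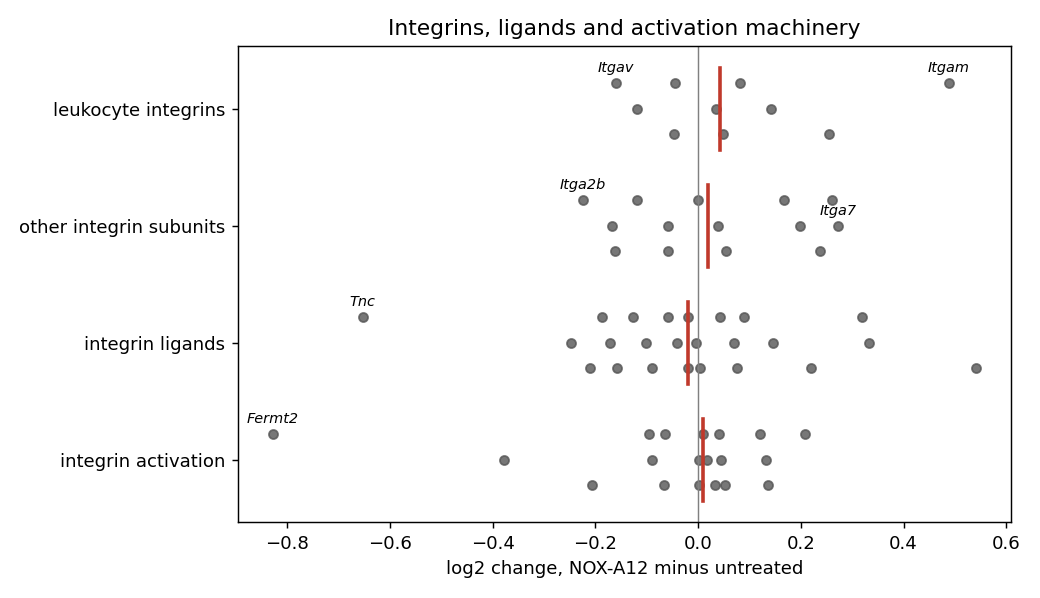
Log2 change (NOX-A12 minus untreated) of each gene at its probe set of highest mean, for the 10 leukocyte integrins, 14 other integrin subunits, 24 integrin ligands and 19 activation genes; points are spread vertically for legibility only, and red lines are list medians. The medians lie between -0.02 and 0.04, and Fermt2 at -0.83 and Tnc at -0.65 are the points farthest to the left.

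The cell types that carry these integrins had the following marker changes, with 0 markers of any list past the adjusted threshold in limma. The median was 0.08 over 12 neutrophil markers (-0.03 without untreated mouse 3) and -0.04 over 13 monocyte and macrophage markers (-0.10 without it). B lineage markers, from cells that use alpha4-beta1, had a median of -0.29 over 11 genes, 9 of them negative, with summed intensities of 4404 to 5675 in NOX-A12 mice and 5559 to 7341 in untreated mice, and a median of -0.38 without that mouse. Natural killer markers had a median of -0.18 over 9 genes (-0.29 without that mouse). The medians of 7 erythroid and 8 megakaryocyte markers were 0.04 and -0.10, and -0.030 and -0.019 without it. Those of 8 T-cell and 8 skeletal muscle markers were -0.00024 and -0.0034, and 0.049 and 0.093 without it. Their part in any integrin value was not tested.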

How the data were processed

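Total RNA from whole marrow of 3 NOX-A12 and 3 untreated mice was labelled with biotin and hybridised to 1 array per mouse, per the labels' protocols. The authors deposited linear probe-set intensity values in 1 table, and how they were summarised and scaled is not stated in the labels. Array medians lay within 0.0262 on the log2 scale, so the deposited intensities were used as they stood. The platform annotation named 1 gene for 34945 probe sets, and the 932 with several symbols were left unnamed. The log2(intensity + 16) values went into lmFit and eBayes of limma 3.58.1, run under R 4.3.3, with Benjamini-Hochberg adjustment over 45037 probe sets and a threshold of 0.05, and partner contrasts used exact permutation tests. The fit was tested on simulated arrays with independent noise and spreads taken from the NOX-A12 mice only. Those arrays held none like that of untreated mouse 3, so the fit was not tested under that condition. A gene's main probe set is that of highest mean over the 6 arrays. Each array is a separate animal by its label, and the p-values measure spread between animals. Members, gene lists, named genes (all members, 10 fixed genes the 3 smallest p of each pathway list, Cxcl12 and the 3 genes most like Itga4 and Itgb2) and alternatives were chosen with earlier results of these data known, and the lists carry no test of their own. Probe sets ending in _s_at or _x_at can bind transcripts of more than 1 gene. Promoter windows came from RefSeq (GRCm38.p6). Figures were drawn with matplotlib.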

Additional observations from a re-analysis of the deposited data

How the results depend on the processing

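Alternatives were an offset of 1 or 64, median centring, quantile normalization, keeping only probe sets above the median level, trend and robust variances, the mouse number as a replicate block, leaving out each mouse, the mean of all probe sets of a gene, and leaving out _x_at and _s_at probe sets. In each of the 15 settings 0 members passed, and in limma 0 probe sets passed in the 14 settings over all probe sets; the lowest adjusted p of a member gene was 0.620, and that of any probe set was 0.0631, without untreated mouse 1. Itga5, below the median level, had no value under that filter. Of 149 member changes recomputed, 138 kept their sign. That count includes settings that cannot alter a change: the filter on level, trend and robust variances, and the replicate block. Without untreated mouse 3 the changes of Itga9, Itgal, Itgam, Itgb1 and Itgb2 turned sign. With the mean of all probe sets, Itga4 turned to 0.022 and Itgav to 0.028. Itga5 moved to 0.075 with that mean, 0.069 without _x_at and _s_at probe sets, 0.11 at an offset of 64 and 0.43 at an offset of 1. Leaving out each mouse gave 0.21 to 0.32 for Itga5, -0.25 to -0.023 for Itga6, -0.28 to -0.094 for Itgav, -0.14 to 0.0082 for Itga4, -0.15 to 0.016 for Itga9, -0.058 to 0.15 for Itgal, -0.15 to 0.85 for Itgam, -0.11 to 0.39 for Itgb1, -0.024 to 0.14 for Itgb2 and -0.00036 to 0.080 for Itgb7. The lower ends for Itgal, Itgam, Itgb1 and Itgb2 came without untreated mouse 3, and the upper ends for Itga4, Itgam and Itgb1 without untreated mouse 1. The member median ranged from -0.076 without untreated mouse 3 to 0.11 without untreated mouse 1. The alphaM minus alphaL difference ranged from -0.091 to 0.72 and the beta7 minus beta1 difference from -0.31 to 0.13, over the same 2 mice. The alpha5 minus alpha4 difference ranged from 0.22 to 0.37 when each mouse was left out. It was 0.054 with the mean of all probe sets (exact permutation p = 0.9) and 0.16 at an offset of 64 (exact permutation p = 0.3). Without _x_at and _s_at probe sets it was 0.12, and at an offset of 1 it was 0.47 (exact permutation p = 0.1 for each). With the mouse number as a replicate block, 0 probe sets passed. The median of 0.04 could not move there, because both groups hold the same mouse numbers and the block then leaves each change as it was. Deviations of same-numbered mice correlated at -0.09, 0.05 and 0.03 across probe sets. The highest correlations with a mouse of another number were 0.17, 0.22 and 0.09. With 3 mice a group, these values cannot decide whether the numbers pair the animals. Changes of members with no value well above the median level, such as Itga5, are limited by signal.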
